A study of Oryza sativa with 2 samples.

Results

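Homeobox genes of the HD-Zip, KNOX, Roc and WOX classes were followed in the developing collar of rice, where the leaf blade meets its sheath. Members were found by name: a probe set had to map to a single gene carrying, as a symbol or synonym, Hox, WOX, Roc, HOS or OSH followed by a number. In all, 54 genes bore such a name, 49 of them had at least 1 probe set of their own, and these 49 genes held 61 of 57194 non-control probe sets. The genes comprised 25 HD-Zip, 9 KNOX, 8 Roc and 7 WOX genes, out of 17905 genes on the array with a probe set to themselves. OsHox3, OSH10, OSH15, Roc9 and OsWOX5 had none and are not analysed here. A probe set that reads OSH15 and a second for OsHox29 are each annotated to several genes and were left out.

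The study compared wild type plants with antisense OsLIC plants, in which the full-length cDNA of the zinc finger gene OsLIC runs backwards from the maize ubiquitin1 promoter. Both were grown in the same field to the heading stage, and each array received RNA of 30 collars, the antisense collars being those of a single transgenic line, line 2. There was 1 array per condition, so the data hold no replicate spread. No test of a difference was therefore made, and the values describe these 2 arrays. In such bulk RNA, fewer cells of a type and less RNA per cell cannot be told apart.

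The homeodomain is a DNA-binding fold shared by all these proteins. HD-Zip proteins, found only in plants, join it to a leucine zipper through which they pair. Their class I members are known from responses to drought and abscisic acid, class II from auxin and shade responses, and class III from the upper face of the leaf and the vascular tissue. The Roc genes are class IV and act in the epidermis. In the counts here, HD-Zip stands for classes I to III, and the Roc genes are counted apart. Class I KNOX genes maintain the shoot meristem, and in maize their misexpression in leaves shifts the boundary of blade and sheath. Class II KNOX genes are active in differentiated organs. WOX genes act in stem cell niches and in the start of new organs.

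The signals are linear values of the Affymetrix GeneChip Operating Software, with each array scaled to an overall intensity of 500. The log2 ratio is antisense OsLIC over wild type, after signals under 20 were set to 20. A gene was read from its brightest probe set and counted as measured when that probe set reached 100 on the brighter array, and a log2 ratio of 1 or -1 was taken as a 2-fold difference. The signal of OsLIC itself was 219.8 in the wild type and 2069 in the antisense plants, a log2 ratio of 3.23. Since the targeted gene was the higher one under the antisense label, every direction below is one between arrays as labelled. The transgene also yields RNA of OsLIC sequence, and which strand this probe set reads was not checked. Over the 26697 probe sets past the minimum, Pearson's r between the log2 signals was 0.937, with a median ratio of -0.01 on that scale. The poly-A controls, added before labelling, had a median ratio of 0.668 over 36 probe sets, and the hybridisation controls one of 1.11 over 27. LG1, which is needed to form the ligule and marks this joint, had signals of 494 and 641.

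HD-Zip genes were mostly lower on the antisense array, while KNOX and WOX genes showed no common direction. Of the 49 genes, 32 were measured. Among these, 3 were at least 2-fold lower, against 2.84% of all 14737 measured genes, and all were HD-Zip genes: OsHox22, OsHox19 and OsHox11. None of the 32 was at least 2-fold higher, against 3.72% of all genes. Counting these 3, 17 of 19 HD-Zip genes (89.5%) had a log2 ratio below 0, and among those short of 2-fold 14 of 16 (87.5%) did. Of the other 13 homeobox genes, 8 (61.5%) were below 0, namely 4 of 5 Roc, 3 of 6 KNOX and 1 of 2 WOX genes. The share over all genes was 51.0%. The median log2 ratio was -0.42 for HD-Zip, -0.21 for Roc, -0.01 for KNOX (0.00 after median centring) and 0.32 for the 2 measured WOX genes, against -0.01 for all genes. Of the 19 HD-Zip genes, 12 (63.2%) lay under the lower quartile of all genes, a log2 ratio of -0.24, and none lay above the upper quartile of 0.23. No difference between the classes was tested.

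**Figure D1:**
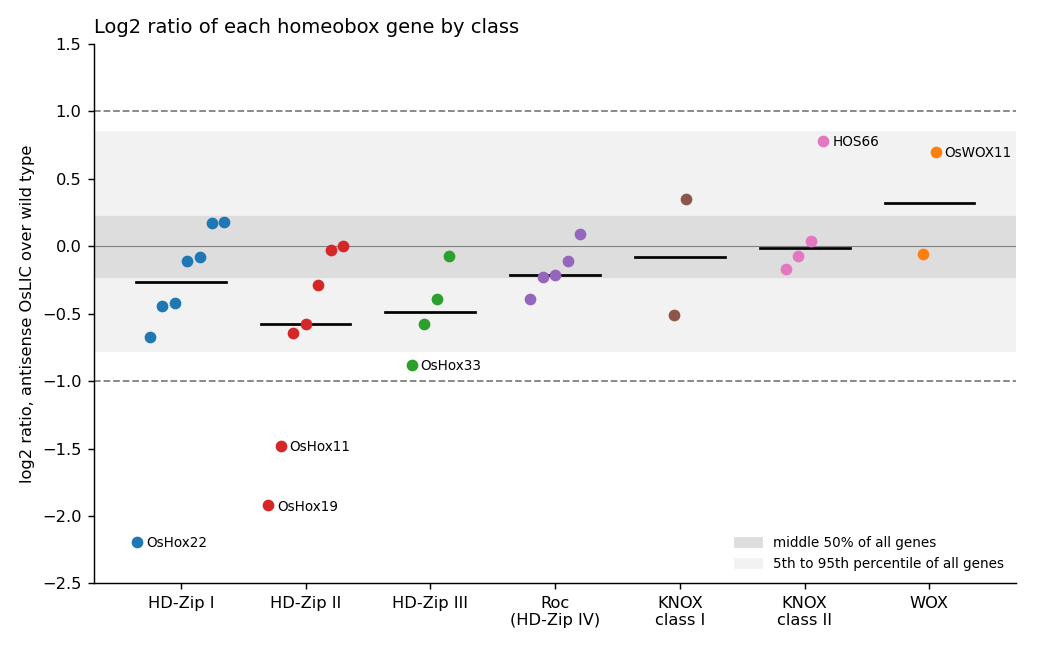
Log2 ratio of the 32 measured homeobox genes by class, 1 point per gene, with black bars for class medians, dashed lines at the 2-fold limits and grey bands for all genes. OsHox22, OsHox19 and OsHox11 lie beneath the lower limit, and HOS66 (0.78) is the highest point.

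OsHox22 (LOC4336542), a class I gene that acts in abscisic acid and drought responses, had a signal of 519 on the wild type array and 114 on the antisense array. It was 4.56-fold lower (log2 ratio -2.19), a ratio smaller than that of 99.5% of all measured genes. Its single probe set has neither of the endings, _x_at and _s_at, that Affymetrix gives to designs liable to read related transcripts too. OsHox24, another class I gene of stress responses, was dim on both arrays, with signals of 29.1 and 41.0.

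OsHox19 (LOC4332147), of class II, went from 346 to 91.5 by its brightest probe set, an _x_at design, and was 3.78-fold lower (log2 ratio -1.92). A second, specific probe set read 139 and 8.43, at least 6.97-fold lower. The third stayed dim at 19.1 and 33.3, and which strand it reads was not checked. The low reading thus rests on 2 of 3 probe sets. OsHox11 (LOC4347205), also of class II, had signals of 168 and 60.5, and was 2.78-fold lower (log2 ratio -1.48) by an _x_at probe set alone. Both genes passed the signal minimum through the wild type array only. Where 100 was asked of both arrays, OsHox22 was the single gene of 30 left past 2-fold, against 1.84% of all genes 2-fold lower. Whether the _x_at probe sets also read other HD-Zip transcripts was not tested.

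Class II had a median of -0.58 over 7 measured genes, OsHox19 and OsHox11 included. Over the 5 that reached 100 on both arrays it was -0.29, nearer to 0 than the -0.48 of class III. OsHox1, known from vascular development and auxin responses, had signals of 3701 and 2484 (log2 ratio -0.58). OsHox17 read 197 and 126 (-0.64) and OsHox2 909 and 741 (-0.29). Those nearest 0 were OsHox15, at 2768 and 2759 (-0.00), and OsHox7, at 218 and 214 (-0.03). The other probe set of OsHox7, without the suffix _x_at, read 272 and 161 (-0.76), so this gene has no settled size. OsHox28, which lies next to OsHox2 on the chromosome with 0 coding genes between them, stayed under the minimum with signals of 67.5 and 87.6. OsHox28 was thus too dim for a direction to be set beside that of OsHox2.

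Class III leaned the same way in each of its 4 measured genes, with none past 2-fold and a median of -0.48. OsHox33, which has been tied to leaf senescence, was lowest, with signals of 468 and 254 (1.85-fold lower, log2 ratio -0.88), just short of the limit. OsHox9 read 903 and 604 (-0.58). OsHox32, whose overexpression makes narrow, rolled leaves, read 403 and 308 (-0.39). OsHox10 differed by probe set, from 1259.9 to 1203 (-0.07) by the brighter and from 408 to 272 (-0.58) by the dimmer. OsHox29 was under the minimum at 38.0 and 23.8, too dim for a ratio to be used. All the class III readings past the minimum were thus lower under the antisense label, by at most 1.85-fold.

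Class I held both the gene furthest from 0 and the only measured genes of classes I to III above 0. Beside OsHox22, OsHox5 read 4158 and 2608 (-0.67, and -0.27 by a dim probe set), OsHox6 2705 and 1998 (-0.44) and OsHox20 2129 and 1593 (-0.42, and -0.15 by its other measured probe set). OsHox4, which affects gibberellin responses, read 2398 and 2707 (0.17), and OsHox21 read 872 and 987 (0.18). OsHox13 and OsHox16 lay nearest 0. OsHox13 had signals of 2449 and 2325 (-0.08). OsHox16 had 25323 and 23425 (-0.11) by its brightest probe set, but 4468 and 6431 (0.53) by an _x_at probe set, and a dim one read 3.95 and 31.8. The median of the 8 genes was -0.27. OsHox12 and OsHox14, both known from the panicle, were under 20 on both arrays, and OsHox8 was dim, with 81.3 on its brighter array.

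**Figure D2:**
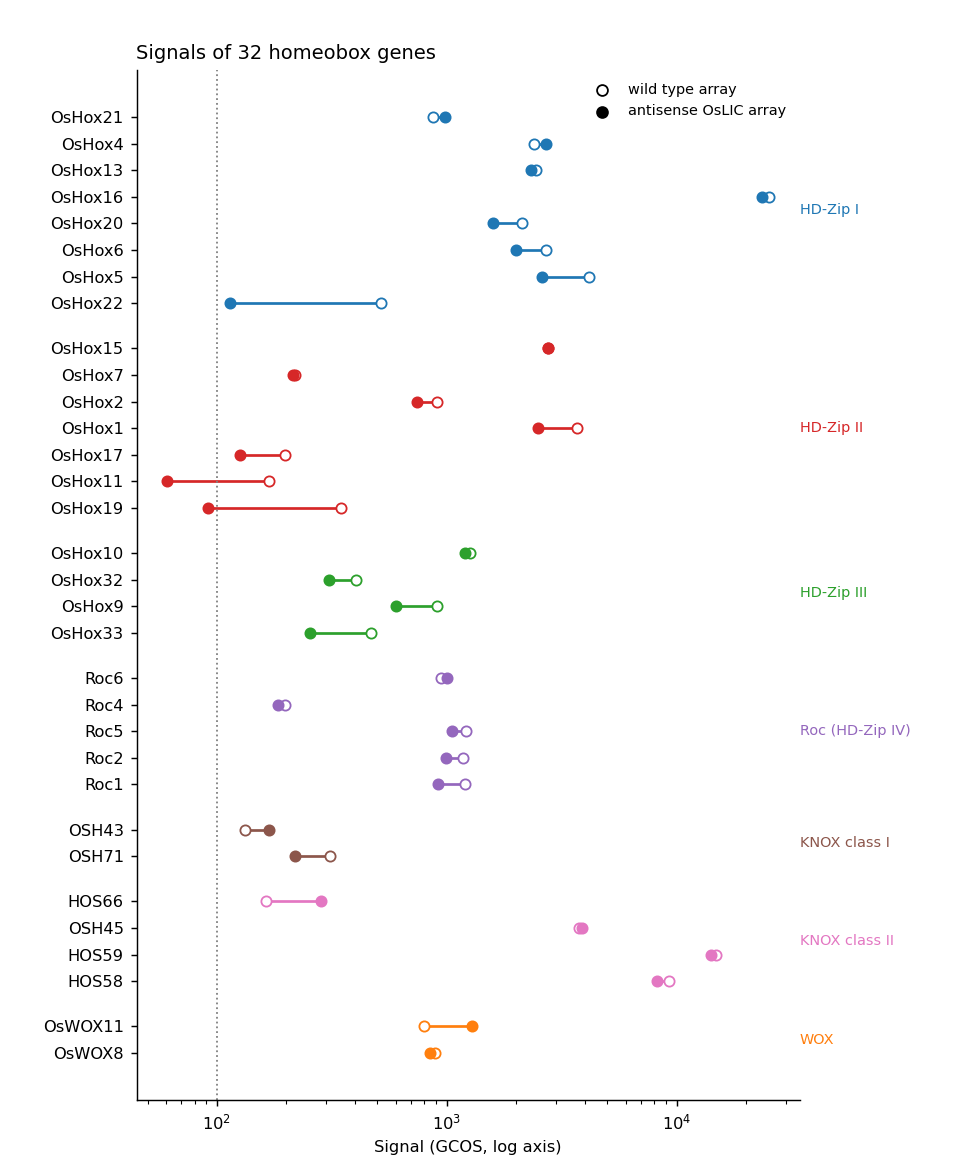
Signal of each measured homeobox gene on the wild type array (open circle) and the antisense OsLIC array (filled circle), on a log axis, with the minimum of 100 dotted. Signals can be compared within a row only, since probe sets differ in how brightly they read. In HD-Zip classes II and III the filled circle lies left of the open one, or on it for OsHox15.

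Among measured HD-Zip genes, the ratios lay further below 0 in the dimmer range. Whether this extended to the HD-Zip genes under the minimum cannot be told, because they were too dim for a ratio to be used. For OsHox12 and OsHox14 both signals were raised to the same lowest value, so their ratios could not fall below 0. Of the HD-Zip genes, 7 reached between 100 and 600 on the brighter array, and all 7 had ratios below 0 (median -0.88, from -2.19 to -0.03). OsHox19 and OsHox11 entered this range through the wild type array only, and the median of the other 5 was -0.64. The other 12 reached 600 or more, and 10 of these were below 0 (median -0.20, from -0.67 to 0.18). Over all genes the median was -0.01 in both ranges, with 50.5% below 0 in the dimmer range and 51.2% in the brighter. In the dimmer range 5.15% of all genes were at least 2-fold lower, and in the brighter 1.72%. The 3 homeobox genes past 2-fold all lay in the dimmer range, among 11 homeobox genes there.

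The Roc genes differed little between the arrays, with 4 of 5 measured genes below 0. Roc1, named for the outermost cell layer of the embryo, had signals of 1207 and 921 (log2 ratio -0.39), the largest difference of the class. Roc2 read 1172 and 996 (-0.23). Roc5, which limits the bulliform cells that roll the leaf, read 1216 and 1049.7 (-0.21). Roc4, which acts in cuticular wax synthesis, read 198 and 184 (-0.11). Roc6 stood slightly above 0, at 946 and 1006 (0.09), with a dim probe set at 65.4 and 91.7. Roc3, Roc7 and Roc8 were under the minimum, with signals from 15.9 to 78.4. The Roc median of -0.21 lay near the -0.27 of HD-Zip class I. The medians of HD-Zip classes II and III were lower (-0.58 and -0.48). Over the genes past the minimum on both arrays, however, class II had a median of -0.29. None of these differences was tested.

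The KNOX genes split by class in how they were detected. Of 5 class I genes, OSH1, OSH3 and OSH6 were under the minimum. OSH1, a marker of the shoot meristem, read 22.9 and 22.3 by one probe set and 13.7 and 23.2 by the other, and OSH3 was under 20 on both arrays. OSH6 read 27.5 and 57.9, too dim for a ratio to be used. OSH71 was measured at 310.3 and 218 (log2 ratio -0.51). OSH43 was measured at 133 and 169 (0.35) by a probe set of suffix _s_at, while its specific probe set gave 10.4 and 9.39. OSH1 and OSH3, with 1 coding gene between them on the chromosome, were thus alike in being dim.

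All 4 class II KNOX genes were measured. HOS58 had signals of 9247 and 8197 (log2 ratio -0.17), HOS59 14853 and 14153 (-0.07) and OSH45 3781 and 3891 (0.04). These 3 lay inside the middle 50% of all genes. HOS66 was apart from them, going from 164 to 283, 1.72-fold higher (0.78), a ratio above that of 94.3% of all genes. It was the highest ratio of the 32 measured homeobox genes, yet short of 2-fold.

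OsWOX11, which drives the emergence of crown roots and acts with OsWOX6 in shoot gravitropism and tiller angle, had signals of 793 and 1283, 1.62-fold higher (log2 ratio 0.70), above 92.8% of all genes. OsWOX8, which the annotation also calls OsWOX13, read 885 and 847 (-0.06). The other 5 WOX genes were under the minimum. OsWOX6 read 5.31 and 46.6 by one probe set and 7.63 and 4.87 by the other, so that its probe sets disagree and no ratio is given. OsWOX9, known as QHB and found in the quiescent centre of the root, read 39.2 and 47.5, and OsWOX7 30.7 and 7.84. OsWOX4 and OsWOX10 were under 20 on both arrays. Of the 7 WOX genes with a probe set, therefore, OsWOX11 and OsWOX8 were the ones detectable above the minimum in these collars.

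**Figure D3:**
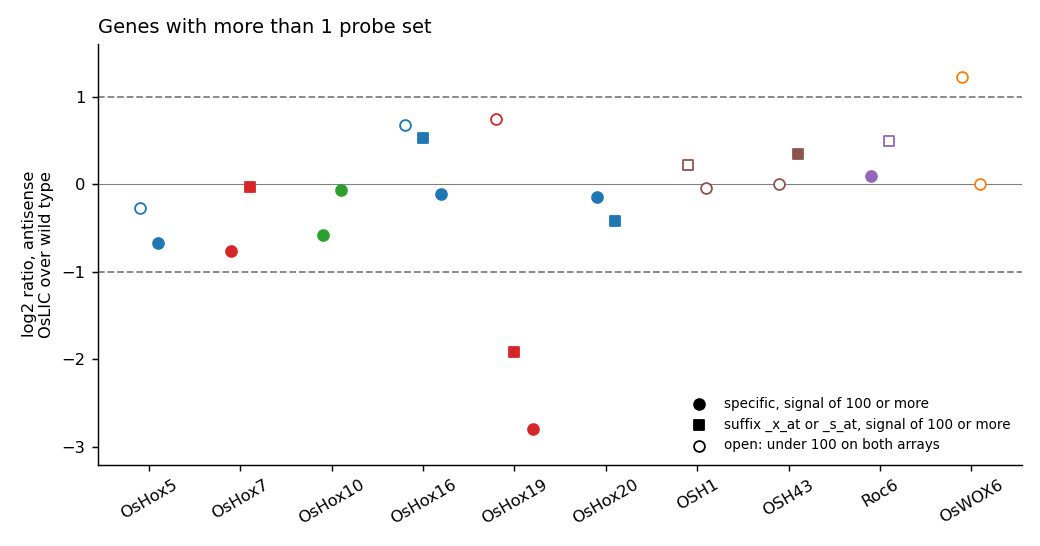
Log2 ratio of every probe set of the 10 homeobox genes with more than 1, as squares for the endings _x_at and _s_at and circles otherwise, open where the signal was under 100 on both arrays. The 2 filled points of OsHox19 (-1.92 and -2.80) lie together under the 2-fold limit, while those of OsHox16 (-0.11 and 0.53) lie on either side of 0.

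Probe sets of the same gene gave a measure of how far a ratio depends on the probe set read. They read the same RNA on the same arrays, so this measure holds no spread between plants or arrays. For 5 homeobox genes with at least 2 measured probe sets, the log2 ratios of a gene differed by a median of 0.64 and by at most 0.88. Over all 2166 such genes the median gap was 0.29, and the 90th percentile 0.99. Of the 16 HD-Zip genes short of 2-fold, 9 had a log2 ratio further from 0 than the median gap of all genes, and 3 further than that of the homeobox genes. The share of all genes past these gaps was not counted, but their quartiles lay at -0.24 and 0.23. Being past a gap is therefore no sign of a difference between the plants.

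Genes of related families and pathways were read in the same way. No gene was past 2-fold among 2 measured genes of other homeobox families, where HAZ1 had a log2 ratio of 0.02 and OsZHD10 one of -0.43. The same held for 10 genes of cytokinin activation and gibberellin synthesis, hormone pathways that KNOX proteins are known to act on. These were genes of the LOG family with GA20OX2 and GA20OX3, and whether KNOX proteins act on them was not tested. Of the 10, 7 lay below 0, and the median was -0.17. LOGL1, of the enzymes that activate cytokinins, read 559.5 and 1081 (0.95), and GA20OX2, a gibberellin synthesis gene, read 136 and 69.6 (-0.97). Of 11 measured genes of leaf polarity, boundaries and meristems, none was past 2-fold, and the median was -0.04. DL, which forms the midrib, read 129.6 and 229 (0.82), and OsRS2, homologous to a repressor of KNOX genes in maize, read 1133 and 843 (-0.43). The genes of these lists thus lay on both sides of 0.

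Some genes listed as markers of panicle tissue were also lower beside the HD-Zip genes. The list held 16 floral MADS-box genes, and whether they mark panicle tissue in these collars was not tested. Of the 16, 7 were measured. Among these 7, 4 (57.1%) were at least 2-fold lower on the antisense array, against 2.84% of all genes. Of these 4, MADS2, MADS15 and MADS34 passed the minimum through the wild type array only. Among the 3 floral genes past it on both arrays, MADS14 alone was 2-fold lower. MADS14 read 2509.7 and 555 (log2 ratio -2.18) by its brightest probe set, but 1396 and 715 (-0.97) by an _x_at one. Its remaining probe sets gave -2.27 and -1.95. MADS15 read 413 and 53.7 (-2.94), whereas MADS16 read 1001 and 1179 (0.24). The summed signal of the 7 was 14136 and 7953, most of it from MADS18, which read 9773 and 6057 (-0.69). Such a sum is weighted by how brightly each probe set reads. The other 9 were under the minimum, MADS1, MADS3, MADS6 and MADS13 among them. Of the blade markers, CAB2R read 25685 and 12844, just short of 2-fold lower by this probe set and past it (-1.23) by its other one, while OsrbcS read 14898 and 25699 (0.79) by its brightest probe set and 3933 and 2997 (-0.39) by another. Of 5 measured genes of dividing cells, CYCB1-1 (LOC4327547) was higher, at 48.5 and 109 (1.17), passing the minimum through the antisense array only, and their median was 0.17. A second CycB1-1 gene (LOC4326914), under the minimum, read 43.1 and 16.7, and a dim probe set of CYCB2 read 44.5 and 5.52, so that dim cyclin genes went both ways. The part of tissue makeup in the HD-Zip readings was not tested.

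**Figure D4:**
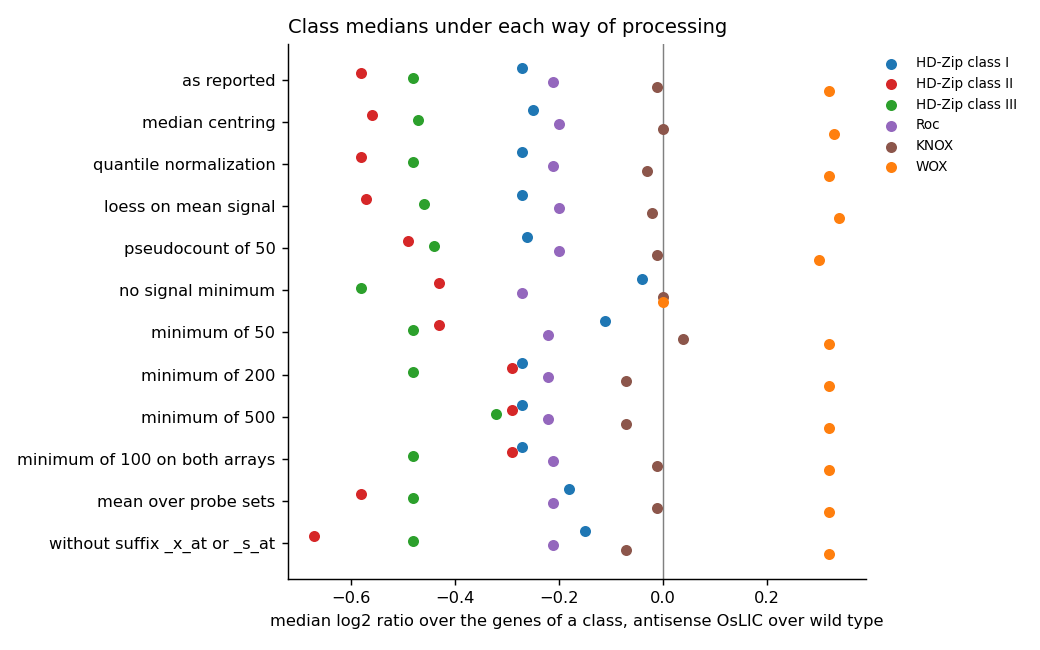
Median log2 ratio of each homeobox class as reported and under 11 other ways of processing the signals, with 0 as a grey line. HD-Zip classes I, II and III and Roc lie left of 0 in every row, KNOX lies close to 0, and WOX falls to 0.00 where no signal minimum was set.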

How the data were processed

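Signals of the GeneChip Rice Genome Array were compared between 1 array per condition. The deposited values are linear intensity signals, 1 per probe set, that the authors computed with GCOS (version not given in the sources used here) and scaled to an overall intensity of 500. They hold no detection calls, and precision is limited by having so few arrays. The platform annotation gave the gene of each probe set, and a RefSeq gene table (assembly ASM3414082v1) its names and neighbours. HD-Zip and KNOX classes were assigned by gene number from general knowledge. Signals under 20 were set to 20 and no further normalization was made. The code (Python 3.11.15, pandas 2.3.3, statsmodels 0.14.6) was tested on simulated data. Alternatives were median centring, quantile normalization, loess (fraction 0.4), a pseudocount of 50, other signal minimums, a 3-fold threshold, means over probe sets, and leaving out _x_at and _s_at probe sets. The members and lists were chosen with earlier results of these data known. All KNOX, Roc and WOX genes past the minimum were to be named, and in each HD-Zip class the 4 genes furthest from 0 and the 2 nearest, with all genes past 2-fold. Genes of related lists short of 2-fold were named after their values were seen, and the signal ranges, the HD-Zip class medians and the counts below 0 were added then too. Protein and promoter sequences were not used here.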

Additional observations from a re-analysis of the deposited data

How the results depend on the processing

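The count of 3 homeobox genes at least 2-fold lower was 1 of 22 at a signal minimum of 500 (1.77% of all genes). With 100 asked of both arrays it was 1 of 30 (1.84% of all genes). No gene was at least 2-fold higher, but there were 2 of 49 with no signal minimum (5.39% of all genes). At a minimum of 50 there was 1 of 36 (5.19% of all genes), and these were dim signals. The number of HD-Zip genes below 0 was 11 of 13 at a minimum of 500, where fewer genes are measured. With no minimum it was 18 of 25, the lowest share of the settings tried. That count takes in genes too dim for a ratio to be used. Among them, OsHox12 and OsHox14 had both signals raised to the same lowest value, so their ratios could not fall below 0. With a pseudocount of 50 the log2 ratio of OsHox11 was -0.98, no longer 2-fold, and with _x_at and _s_at probe sets left out those of OsHox19 and OsHox7 were -2.80 and -0.76. The other values moved by less than 0.5 on the log2 scale, in 328 of 331 repeats over 32 genes. The HD-Zip median ranged from -0.44 to -0.29, and was -0.34 without the 3 genes past 2-fold, an alternative chosen after seeing the data, as were those for classes I, II and III. The class I median was -0.04 with no minimum, and that of class II -0.29 at minimums of 200 and 500 and with 100 asked of both arrays. Class III (-0.48, -0.32 and -0.48) then lay lower than class II, as it did with no minimum (-0.58 against -0.43) and at 50 (-0.48 against -0.43). The KNOX median, close to 0, ranged from -0.07 to 0.04. Median centring turned OsHox15 from -0.00 to 0.01, the single change of sign under 3 scalings. Outside these scalings, means over probe sets turned OsHox16 from -0.11 to 0.21. The HD-Zip genes below 0 were then 16 of 19, against 50.9% of all genes. No paired analysis was possible because there is 1 array per condition.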

Other observations

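Tiller angle in rice is controlled in part by OsHox1 and OsHox28, by the heat shock factor HSFA2D, by LAZY1 (LA1 in the annotation) and by OsWOX6 and OsWOX11. HSFA2D and LA1 were looked at after the values of the homeobox genes had been seen. LA1, which directs the gravity response of shoots, had signals of 6805 on the wild type array and 4059.7 on the antisense array (log2 ratio -0.75). HSFA2D read 5728 and 5412 (-0.08) by its brightest probe set, but 456 and 69.7 (-2.71) by the other, so its probe sets disagree. Within this group of names, OsHox1 and LA1 were thus lower and OsWOX11 higher under the antisense label, none of them by 2-fold. OsHox28, at 67.5 and 87.6, and OsWOX6 were too dim for a direction to be given.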
